A study of Mus musculus with 12 samples.

Results

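Entry into the paused state was followed in wild-type mouse embryonic stem (ES) cells of the line labelled KH, by comparing 2 libraries taken after 72 h with the mTOR inhibitor Ink128 with 2 libraries taken at 0 h. These 4 libraries are part of a series of 12, in which KH cells and DNMT3ABKO cells, a line that lacks both de novo methyltransferase genes, Dnmt3a and Dnmt3b, were each sampled in pairs at 0, 72 and 144 h. Genes were kept where the mean over the 4 libraries was at least 1 TPM (the transcript's share of the library, corrected for its length and scaled to a fixed total), which left 15464 of the 54446 gene identifiers. Values were compared as log2(TPM + 1), and all fold changes below are on that scale, which understates the change of genes with few TPM. Ink128 is a kinase inhibitor that acts on both mTOR complexes. Per the study's methods, the cells of both lines grew on mitomycin-treated feeders, and live single cells were collected by sorting for RNA. The labels place E14 before the line name and the methods call the wild-type line KH2. No library came from an untreated culture kept for 72 h, so the effect of the inhibitor and that of time in culture cannot be told apart. The labels do not say whether replicates were separate cultures. The study's reporting summary states, for all its experiments, at least 2 independent repeats. It adds that the time points of a biological replicate were handled in parallel. The p-values measure only the spread between these libraries.

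mTOR complex 1 is the kinase through which growth factors and amino acids set the rate of protein, lipid and nucleotide synthesis, and it holds back the lysosome and autophagy when nutrients are plentiful. In ES cells and in blastocysts, inhibition of mTOR brings about a reversible, near-dormant state that resembles diapause, the natural delay of implantation. Much of the control of metabolism by mTOR complex 1 acts through transcription factors. These are ATF4 for amino acid synthesis, SREBP for sterols and fatty acids, HIF1 and Myc for glycolysis, and TFEB and TFE3 for lysosomal genes. The targets of these factors, the ribosome, the cell cycle, pluripotency and DNA methylation were therefore followed one by one.

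The libraries of each group lay close together. Across the 15464 genes, Pearson's r between replicates was 0.993 at 0 h and 0.995 at 72 h, a description across genes, which are not independent replicates, and at most 2 genes had the same value in both replicates, with no tolerance on the deposited digits. The replicate SD on the log2 scale was 0.178 at 0 h and 0.135 at 72 h. It was 0.271 in DNMT3ABKO cells at 0 h (r = 0.985), whose libraries share the spread of the fit. Between 15196 and 15507 genes reached 1 TPM in each of the 4 libraries. Protein-coding genes held 67.6% ± 3.46 of the TPM at 0 h and 67.8% ± 0.393 at 72 h (SD, n = 2). The ES cell identity of the samples was plain from Pou5f1 (843 and 863 TPM at 0 h), Sox2 (208 and 225 TPM) and Dppa5a (1864 and 1959 TPM). Fibroblast and macrophage genes were also present, at a summed 4274 and 4776 TPM for the 28 fibroblast markers and 368 and 402 TPM for the 20 macrophage markers at 0 h. Their summed levels fell by 72 h, as described below. In bulk RNA, fewer cells of a type and less RNA per cell cannot be told apart. TPM are shares of a fixed sum, so a rise or fall below is relative to the rest of the library, and no change in the total RNA per cell can be read from it.

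At 72 h, 7593 of the 15464 genes (49.1%) passed an adjusted p of 0.05 in limma, 4404 higher (28.5%) and 3189 lower (20.6%). The median log2 fold change of all genes was 0.077, with a 5th percentile of -0.81 and a 95th of 0.91. A change of at least 1 on the log2 scale was reached by 583 higher (3.77%) and 450 lower genes (2.91%), and a change of at least 2 by 19 higher and 47 lower genes. Of all calls, 58.0% were higher. After median-ratio scaling, which moved the median of all genes to -0.0051, 47.6% were higher, so the balance of directions depends on the scale. Counts of called members of any list below are to be read beside these shares of all genes, 28.5% higher and 20.6% lower. Every adjusted p given here is from limma with the Benjamini-Hochberg method over all genes tested. After a gene's levels in TPM, a value in brackets is its log2 fold change, and a rise or fall by a value is on the log2 scale too. Gene coordinates are those of the files, in build mm10 per the submitters' processing notes.

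Among the genes with the largest rises were transcription factors of the early epiblast and neural plate. Gbx2 (ENSMUSG00000034486.8, chromosome 1, 89927956 to 89931179), a homeobox factor that sustains ES cell self-renewal downstream of LIF, was at 8.74 and 11.5 TPM at 0 h and at 55.3 and 52.6 TPM at 72 h (log2 fold change 2.31 ± 0.11 SE, adjusted p = 4.26e-07). Both 72 h libraries lay more than 4 times above both 0 h libraries. Sox1, a factor of the neural plate, rose from low levels and was at 0.492 and 0.521 TPM at 0 h and at 5.66 and 5.50 TPM at 72 h (2.13, adjusted p = 3.77e-07). Cntfr, the receptor subunit for ciliary neurotrophic factor that signals through the same gp130 chain as LIF, was at 4.69 and 5.60 TPM at 0 h and at 25.5 and 23.3 TPM at 72 h (2.05, adjusted p = 6.54e-06), and Shisa2, an inhibitor of Wnt and FGF receptor maturation, was at 3.18 and 2.43 TPM at 0 h and at 14.8 and 14.2 TPM at 72 h (2.03, adjusted p = 1.23e-06). Platr7, a long noncoding RNA associated with pluripotency, had the highest log2 fold change at 2.87 and stood at 2.93 and 2.61 TPM at 0 h and at 26.8 and 26.3 TPM at 72 h. Halr1, a noncoding RNA beside the Hoxa cluster, was at 20.2 and 22.8 TPM at 0 h and at 116 and 112 TPM at 72 h (2.35, adjusted p = 1.14e-07). Libraries that did not overlap between the groups were a condition for naming these genes.

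Genes with roles outside the ES cell were also among the highest. Nphs1 (ENSMUSG00000006649.17, chromosome 7, 30458315 to 30487223) encodes nephrin, an adhesion protein of the kidney filter, and was at 17.9 and 17.9 TPM at 0 h and at 124 and 119 TPM at 72 h (log2 fold change 2.70 ± 0.068 SE, adjusted p = 4.51e-08). Its antisense transcript Nphs1os was at 2.04 and 2.39 TPM at 0 h and at 13.0 and 12.2 TPM at 72 h and its neighbour Kirrel2, which encodes a nephrin-like protein, at 5.97 and 6.63 TPM at 0 h and at 35.0 and 33.0 TPM at 72 h. Whether strand was used in the counting is not given in the sources used here, so reads of Nphs1 and Nphs1os may not be separable. Capn3, a calcium-dependent protease best known from muscle, was at 0.680 and 1.09 TPM at 0 h and at 10.8 and 10.1 TPM at 72 h (2.61, adjusted p = 2.31e-07). Exoc3l, related to the exocyst, was at 7.65 and 8.42 TPM at 0 h and at 43.2 and 38.1 TPM at 72 h (2.20), and Ppm1j, a protein phosphatase, at 9.37 and 9.88 TPM at 0 h and at 47.4 and 43.1 TPM at 72 h (2.12).

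The 12 lowest genes included several of matrix and muscle. Ly6a, which encodes the surface antigen Sca-1, was at 55.4 and 61.5 TPM at 0 h and at 2.77 and 3.14 TPM at 72 h (log2 fold change -3.91 ± 0.17 SE, adjusted p = 2.41e-07). Matrix and muscle genes followed, with Col6a3 at -3.62, Postn at -2.85, Actg2 at -2.60, Col3a1 at -2.53 and Acta1 at -2.52, and belong with the fibroblast and muscle genes described below. The other falls were of genes with varied roles. Fgf8 was at 16.4 and 13.8 TPM at 0 h and at 1.07 and 0.922 TPM at 72 h (-3.01, adjusted p = 3.42e-06) and Fgf5, the marker of the primed epiblast, at 11.5 and 11.8 TPM at 0 h and at 0.743 and 0.704 TPM at 72 h (-2.88, adjusted p = 1.42e-06). Calcoco2, which encodes the selective autophagy receptor NDP52, was at 70.9 and 78.0 TPM at 0 h and at 4.68 and 6.07 TPM at 72 h (-3.57, adjusted p = 1.14e-07). Rhox9, Ddit4 and Pck2 were also among the 12 lowest, at -2.64, -2.52 and -2.52.

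By absolute level, the largest moves were those of abundant RNAs. The 7SK RNA gene Rn7sk, the scaffold of the complex that holds back the elongation kinase P-TEFb, was at 30895 and 27552 TPM at 0 h and at 38931 and 44866 TPM at 72 h (0.52, adjusted p = 0.00185). Near-identical copies of this RNA can share reads, and the call of Rn7sk was lost without the filter on low values (adjusted p = 0.249). Eef1a1, the translation elongation factor, was at 6954 and 7664 TPM at 0 h and at 10867 and 10762 TPM at 72 h (0.57, adjusted p = 3.17e-04), and Malat1, a nuclear noncoding RNA, at 1126 and 1143 TPM at 0 h and at 2006 and 2102 TPM at 72 h (0.86, adjusted p = 4.64e-05). Rn7s1 and Rn7s2, near-identical genes of the signal recognition particle RNA, had the largest falls in TPM, but their 0 h libraries differed widely. Rn7s1 was at 36131 and 25306 TPM at 0 h and at 22073 and 23348 TPM at 72 h (-0.41, adjusted p = 0.0408), so that replicate 2 at 0 h was nearer to the 72 h libraries than to replicate 1, and the call of Rn7s1 was lost without the filter on low values, after scaling to the sum of coding genes, in a fit of the 4 libraries alone, without replicate 1 at 0 h or without either library at 72 h (adjusted p from 0.0599 to 0.311). Gm42418, Gm26917 and Rn7s6 were among the largest moves in TPM and did not pass the test (adjusted p = 0.223, 0.937 and 0.279). Gm28437, a nuclear copy of mitochondrial sequence, did not pass either (adjusted p = 0.0863), though it did in fits of the 4 or 6 KH libraries alone (adjusted p = 5.94e-04 and 2.29e-04). Gm42418 passed, lower, in the fit of 6 (0.026) and Rn7s6, lower, without replicate 2 at 0 h (0.0199). Ptma, which encodes prothymosin alpha, fell from 2657 and 2650.0 TPM to 1923 and 1935 TPM (-0.46).

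Genes of amino acid synthesis and stress under Atf4 had the lowest median of the metabolic groups. Of 28 genes tested, 21 were called lower (75%) and 1 higher (3.57%), against 20.6% and 28.5% of all genes. The Atf4 list had a median of -0.98, and 14 of its genes fell by at least 1. Serine synthesis from glucose takes 3 enzymes, and all 3 fell. Phgdh, the first, was at 114 and 123 TPM at 0 h and at 28.5 and 25.8 TPM at 72 h (-2.09, adjusted p = 1.73e-07). Psat1, the second (ENSMUSG00000024640.9, chromosome 19, 15904678 to 15947337), was at 243 and 269 TPM at 0 h and at 44.2 and 44.8 TPM at 72 h (log2 fold change -2.50 ± 0.081 SE, adjusted p = 9.80e-08), which is 17.4% of its 0 h level. Psph, the third, was at 33.5 and 27.7 TPM at 0 h and at 8.63 and 9.60 TPM at 72 h (-1.64, adjusted p = 1.07e-05). All 72 h libraries lay below all 0 h libraries for the 3 genes, which for Psat1 was a condition of being named. How many of all genes had libraries apart is not given here, so this is only a description.

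The mitochondrial folate enzyme Mthfd2 (from 101 to 18.0 TPM, log2 fold change -2.43), the proline enzyme Aldh18a1 (from 48.6 to 14.7 TPM, -1.66) and Pck2, the mitochondrial form of phosphoenolpyruvate carboxykinase (from 35.5 to 5.36 TPM, -2.52), fell as well. Ddit4, which encodes the mTOR inhibitor REDD1, was at 38.8 and 38.2 TPM at 0 h and at 5.74 and 5.98 TPM at 72 h (-2.52, adjusted p = 2.13e-07). The stress regulators Trib3, Nupr1, Chac1, Atf5 and Atf3 fell (-1.71, -2.18, -1.55, -1.48 and -0.86). Atf4 itself was at 221 and 234 TPM at 0 h and at 246 and 239 TPM at 72 h and did not pass the test (0.091, adjusted p = 0.202). Asns, the asparagine synthetase, fell by 0.52 only, and the cationic amino acid transporter Slc7a3 was the 1 member that rose (from 130.1 to 173 TPM, 0.41). Slc3a2, Slc7a11, Cth, Cbs and Cebpg did not pass the test, although Cth passed, lower, after either scaling and in the fit of the 6 KH libraries (adjusted p from 0.00318 to 0.0488). Nupr1 fell further by 144 h, to 3.16 ± 0.876 TPM.

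The aminoacyl-tRNA synthetases, which charge tRNAs and of which several are also Atf4 targets, fell with them. Of 20 cytosolic synthetases tested, 14 were called lower (70%) and 1 higher (5%), against 20.6% and 28.5% of all genes. The median of the synthetases was -0.49. Nars was at 249 and 265 TPM at 0 h and at 107 and 110.1 TPM at 72 h (-1.24, adjusted p = 4.11e-07), Sars at 182 and 193 TPM at 0 h and at 81.3 and 82.0 TPM at 72 h (-1.19) and Aars at 160.1 and 173 TPM at 0 h and at 83.6 and 81.2 TPM at 72 h (-1.01). Qars was the exception, at 101 and 109 TPM at 0 h and at 152 and 141 TPM at 72 h (0.48, adjusted p = 6.12e-04). Vars and Dars did not pass the test.

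The promoters of the Atf4 list were read for the core letters of the ATF4 response element. RefSeq windows (build GRCm38.p6, 250 bases before to 50 after the start) were given for 25 of the 28 genes, and TGATGCAA, on either strand, was in 6 of them (24.0%), against 1.03% of the 27025 genes with a window. A match is a description of the letters and not a bound site. The windows of Chac1, which encodes a glutathione-degrading enzyme, and of the stress regulator Nupr1 are shown, with the core in capitals. Of the 6 genes with the core, these 2 fell most.
Chac1 (chr2:119350992-119351291, plus strand): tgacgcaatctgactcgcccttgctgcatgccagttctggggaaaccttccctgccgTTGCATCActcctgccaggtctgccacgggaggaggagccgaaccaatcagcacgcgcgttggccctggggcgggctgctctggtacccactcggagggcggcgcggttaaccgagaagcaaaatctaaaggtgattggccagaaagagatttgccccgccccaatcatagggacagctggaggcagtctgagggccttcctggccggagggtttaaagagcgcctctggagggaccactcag
Nupr1 (chr7:126625421-126625720, minus strand): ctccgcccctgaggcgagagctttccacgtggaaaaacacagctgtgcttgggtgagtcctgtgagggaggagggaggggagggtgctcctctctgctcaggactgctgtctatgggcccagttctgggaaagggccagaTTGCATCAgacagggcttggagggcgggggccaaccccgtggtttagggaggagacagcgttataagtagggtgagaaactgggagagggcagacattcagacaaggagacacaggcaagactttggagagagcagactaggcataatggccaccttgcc
The other genes with the core were Pycr1 (-0.76), Atf3 (-0.86), Vldlr (-1.31) and Slc7a11, which did not pass the test (-0.19, adjusted p = 0.218). In both printed windows the core lies on the strand opposite to the gene, as TTGCATCA.

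The pathway from acetyl-CoA to cholesterol was lower along nearly its whole length. Of 19 enzymes of sterol synthesis, 17 were called lower (89.5%) and 0 higher, against 20.6% and 28.5% of all genes. For these enzymes the median was -0.81. Hmgcs1, the enzyme that makes HMG-CoA, was at 145 and 159 TPM at 0 h and at 80.9 and 82.9 TPM at 72 h (log2 fold change -0.88 ± 0.10 SE, adjusted p = 1.04e-04). The prenyl phosphate enzymes Idi1 and Fdps fell (-1.19 and -1.18), and the squalene enzymes Fdft1 and Sqle (-0.70 and -0.81). Dhcr7, the last reductase, fell most, from 29.0 and 28.5 TPM to 10.5 and 9.53 TPM (-1.44, adjusted p = 6.08e-06). Mvk and Tm7sf2 did not pass the test, with adjusted p of 0.0691 and 0.958, and Mvk passed, lower, after median-ratio scaling (0.0422). Libraries did not overlap between the groups for these lower enzymes, which for Idi1, Fdps and Dhcr7 was a condition of being named. The share of all genes with libraries apart is not given here, so this is only a description.

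Of 11 genes of sterol uptake and control, 6 were called lower (54.5%) and 1 higher (9.09%), against 20.6% and 28.5% of all genes. Srebf2 and Srebf1, which encode the SREBP factors, fell (-0.35 and -0.59), and the call of Srebf2 was lost without replicate 2 at 72 h (adjusted p = 0.0521). Nr1h2, which encodes the sterol sensor LXR beta, rose (0.39, adjusted p = 0.00282).

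The RefSeq windows of 14 of the 19 sterol synthesis genes were given. CCAAT, on either strand, was in all 14, against 41.1% of genes with a window. The sterol regulatory element TCACCCCAC was in 1 of the 14 (7.14%) and in 0.614% of all genes with a window. That window, of Hmgcs1, is shown with the element in capitals.
Hmgcs1 (chr13:119690101-119690400, plus strand): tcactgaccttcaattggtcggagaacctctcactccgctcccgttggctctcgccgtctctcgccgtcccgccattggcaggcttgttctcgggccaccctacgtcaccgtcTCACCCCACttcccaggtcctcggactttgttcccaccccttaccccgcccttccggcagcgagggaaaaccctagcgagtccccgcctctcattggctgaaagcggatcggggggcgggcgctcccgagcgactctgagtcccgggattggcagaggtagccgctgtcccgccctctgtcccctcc

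Of 14 genes of fatty acid synthesis and activation, 9 were called lower (64.3%) and 1 higher (7.14%), against 20.6% and 28.5% of all genes. Fatty acid synthesis had a median of -0.65. The desaturases fell most. Scd1 was at 34.9 and 38.7 TPM at 0 h and at 6.51 and 7.06 TPM at 72 h (-2.28, adjusted p = 2.11e-06), Scd2, the more abundant of the pair in these cells, at 209 and 228 TPM at 0 h and at 64.7 and 64.2 TPM at 72 h (-1.74, adjusted p = 7.92e-07), and Fads2 at 38.5 and 41.2 TPM at 0 h and at 8.09 and 10.2 TPM at 72 h (-2.02). Acaca, which makes malonyl-CoA, fell by 1.06. Fasn and Acly, the synthase itself and the source of its acetyl-CoA, were at -0.20 and -0.18 and did not pass the test (adjusted p = 0.055 and 0.0747), and both passed, still lower, after either scaling and in the fit of the 6 KH libraries, Fasn also in the fit of 4 and Acly also without replicate 1 at 0 h (adjusted p from 6.74e-04 to 0.0464). Elovl6, which elongates palmitate, was the 1 member that rose, at 38.7 and 42.3 TPM at 0 h and at 68.1 and 65.2 TPM at 72 h (0.71, adjusted p = 4.16e-04). Among 15 genes of fatty acid oxidation, 3 were called higher (20%) and 3 lower (20%), against 28.5% and 20.6% of all genes. The gate of the pathway, Cpt1a, which moves fatty acids into mitochondria, was at 13.7 and 16.0 TPM at 0 h and at 30.0 and 29.1 TPM at 72 h (0.95, adjusted p = 2.87e-04), and Etfdh, which passes its electrons on, rose by 0.70. The dehydrogenase Acadl fell by 0.44, and the call of Acadl was lost without replicate 2 at 0 h (adjusted p = 0.0574). Calls on oxidation genes numbered 3 without replicate 2 at 72 h, against 6 above.

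Most glycolytic genes fell, several from high levels. Of 24 tested, 16 were called lower (66.7%) and 3 higher (12.5%), against 20.6% and 28.5% of all genes. Glycolytic genes had a median of -0.65, and their summed level went from 10995 ± 567 to 7089.8 ± 134 TPM (SD, n = 2). Ldha, lactate dehydrogenase A (ENSMUSG00000063229.15, chromosome 7, 46841475 to 46855627), was at 1045 and 1166 TPM at 0 h and at 216 and 209 TPM at 72 h (log2 fold change -2.37 ± 0.065 SE, adjusted p = 4.78e-08), or 19.2% of its 0 h level. Tpi1 was at 308 and 331 TPM at 0 h and at 93.1 and 93.1 TPM at 72 h (-1.77), Pgk1 at 379.6 and 391 TPM at 0 h and at 147 and 147 TPM at 72 h (-1.38) and the lactate exporter Slc16a3 at 33.4 and 36.4 TPM at 0 h and at 11.7 and 11.9 TPM at 72 h (-1.49). The glucose transporter Slc2a1 was at 137 and 141 TPM at 0 h and at 65.7 and 64.8 TPM at 72 h (-1.08), whereas Slc2a3, the other main transporter of these cells, was at 209 and 228 TPM at 0 h and at 227 and 225 TPM at 72 h and did not pass the test (adjusted p = 0.669).

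The kinases and enzymes of the upper and lower pathway fell less, with Pfkl at -0.74, Pkm at -0.70, Eno1 at -0.67 and Gapdh at -0.31. The 3 members that rose were Hk2, a hexokinase (0.24), Ldhb, the lactate dehydrogenase subunit that favours pyruvate formation (121 and 129.6 TPM at 0 h and at 169 and 169.5 TPM at 72 h, log2 fold change 0.43), and Pdk1, the kinase that blocks entry of pyruvate into the citric acid cycle (51.6 and 53.9 TPM at 0 h and at 102 and 102 TPM at 72 h, 0.94). Gpi1, Pdha1 and Pfkm did not pass the test. The call of Hk2 was lost after median-ratio scaling or without replicate 1 at 72 h (adjusted p from 0.0546 to 0.0609).

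**Figure D1:**
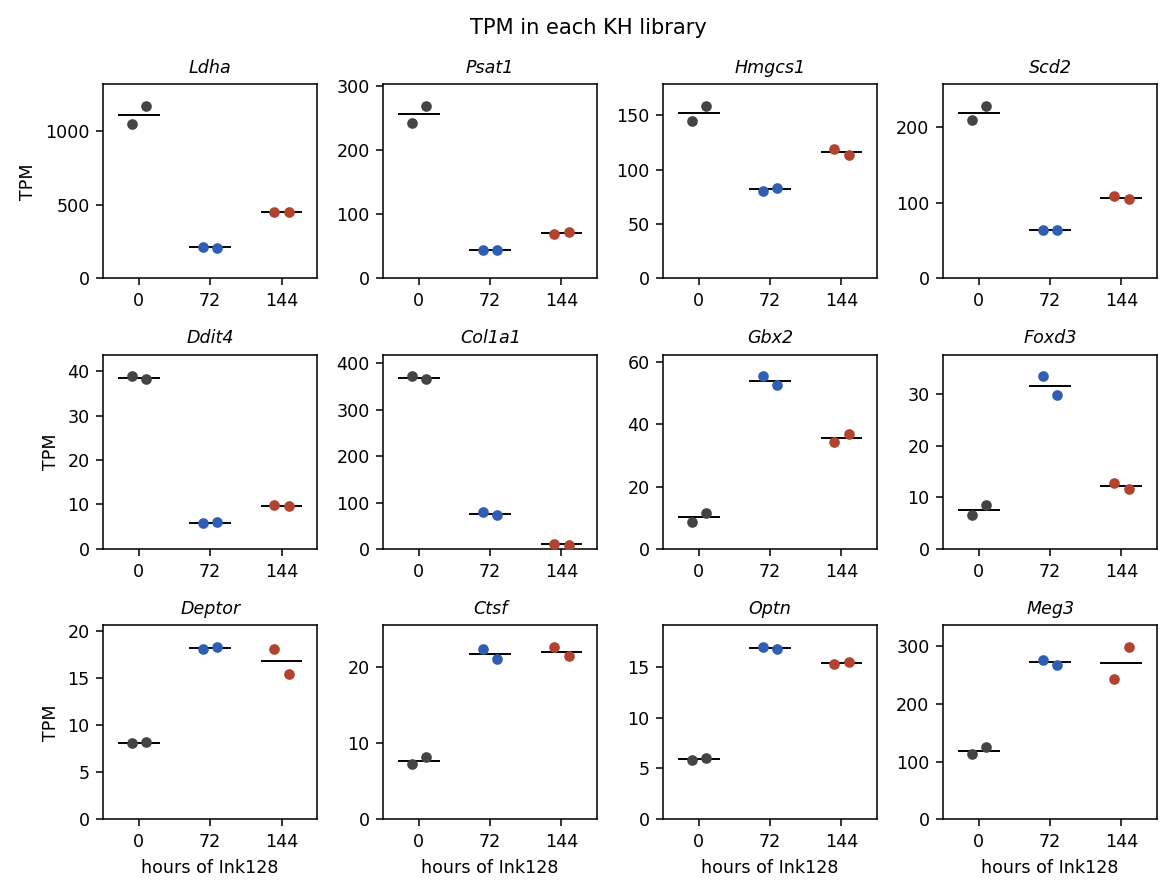
TPM in each of the 6 KH libraries (points) with the mean of each pair (line) for 12 genes, against hours of Ink128 (x axis); each panel's y axis starts at 0. Ldha, Psat1, Hmgcs1, Scd2 and Ddit4 were lowest at 72 h and partly higher at 144 h, Col1a1 fell at both steps, and Gbx2 and Foxd3 were highest at 72 h.

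Nuclear and mitochondrial genes of the respiratory chain were counted apart. Of 77 nuclear genes, 39 were called lower (50.6%) and 2 higher (2.60%), against 20.6% and 28.5% of all genes. Nuclear genes of the chain had a median of -0.25. The changes were small, from -0.87 for Uqcrq of complex III to 0.24 for Ndufv1 of complex I, and Atp5g1 of the ATP synthase fell by 0.81 and Cycs, cytochrome c, (-0.76). The 41 respiratory chain calls came to 27 without replicate 1 at 72 h and 25 without replicate 2 at 72 h. Sdha of complex II and Ndufv1 were the 2 that rose. The call of Sdha was lost without the filter on low values, without replicate 1 at 0 h or without either library at 72 h (adjusted p from 0.0591 to 0.195). The call of Ndufv1 was lost after median-ratio scaling, without replicate 1 at 0 h or without replicate 1 at 72 h (adjusted p from 0.056 to 0.21). Of the 13 messages of the mitochondrial genome, limma called none in either direction, 2 had an unadjusted p under 0.05, and their median was 0.28. In the mitochondrial list, 0 genes were called, and 1 after median-ratio scaling, 1 after scaling to the sum of coding genes, 6 in a fit of the 4 libraries alone, 7 in a fit of the 6 KH libraries and 1 without replicate 2 at 0 h. mt-Co3 was at 1646 and 1915 TPM at 0 h and at 2777 and 2945 TPM at 72 h (adjusted p = 0.0871), and it passed in fits of the 4 or 6 KH libraries alone (adjusted p = 5.89e-04 and 2.25e-04). The spread of the main fit also holds the DNMT3ABKO libraries, and their part in these calls was not tested. Nuclear copies of mitochondrial sequence can share such reads.

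Nucleotide and one-carbon synthesis had a median nearer to 0. That median was -0.24. Of 23 genes, 9 were called lower (39.1%) and 1 higher (4.35%), against 20.6% and 28.5% of all genes. Mthfd1l, a mitochondrial folate enzyme, fell by 0.77. The first step towards GMP has 2 isoforms. Impdh1 was at 32.2 and 35.9 TPM at 0 h and at 22.2 and 19.3 TPM at 72 h (-0.69), and the more abundant Impdh2, the 1 member called higher, at 431 and 482 TPM at 0 h and at 525 and 518.6 TPM at 72 h (0.19, adjusted p = 0.0425), a call lost without the filter on low values, after median-ratio scaling, in the fit of the 4 libraries alone, without replicate 1 at 0 h and without either library at 72 h (adjusted p from 0.0677 to 0.255). The regulated subunit of ribonucleotide reductase, Rrm2, fell by 0.59. Cad, which starts pyrimidine synthesis and is phosphorylated downstream of mTOR, was at 94.2 and 95.2 TPM at 0 h and at 83.1 and 76.6 TPM at 72 h (-0.24, adjusted p = 0.0165), and the call of Cad was lost without either library at 0 h or without replicate 2 at 72 h (adjusted p from 0.0534 to 0.133). Calls on nucleotide genes numbered 6 without replicate 2 at 0 h and 5 without replicate 2 at 72 h, against 10 above.

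The messages for cytosolic ribosomal proteins, whose translation depends on mTOR through a 5′ oligopyrimidine tract, mostly did not pass the test. Of 79, 22 were called higher, 4 lower and 53 did not pass the test, with a median of 0.13 that was 0.043 after median-ratio scaling. The 22 higher members make 27.8% of the list, near the 28.5% of all genes, and the 4 lower members 5.06%, against 20.6%. The 26 ribosomal protein calls came to 40 in a fit of the 6 KH libraries and 17 without replicate 1 at 72 h. Rps24 was at 1877 and 1651 TPM at 0 h and at 2480.1 and 2747 TPM at 72 h (0.57, adjusted p = 0.00163) and Rpl41 fell by 0.55. Many processed pseudogenes share these sequences, so single values are uncertain. Of 4 other messages with such tracts, Eef1a1, Eef2 and Rack1 rose by 0.57, 0.37 and 0.36, whereas Eef1b2 did not pass the test (adjusted p = 0.892).

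Translation factors mostly fell or did not pass the test. Of 43 translation factors, 18 were called lower (41.9%) and 4 higher (9.30%), against 20.6% and 28.5% of all genes. Eef1d, an exchange factor for elongation, was at 419 and 379 TPM at 0 h and at 219.7 and 235 TPM at 72 h (-0.81, adjusted p = 0.00103), Eif5a, the hypusinated factor, fell by 0.52 and the eIF3 subunits Eif3b and Eif3d (-0.31 and -0.35). The 4 that rose were Eif4a2 (from 555 to 864 TPM, 0.64), Eif4g3 (0.64), Eef1a1 and Eef2. Eif4e, the cap-binding protein, did not pass the test and was at 75.6 and 117 TPM at 0 h and at 55.1 and 79.1 TPM at 72 h (adjusted p = 0.185). In the translation factor list, 22 genes were called, and 13 without replicate 2 at 0 h and 14 without replicate 2 at 72 h.

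Of 78 mitochondrial ribosomal proteins, 39 were called lower (50%) and 4 higher (5.13%), against 20.6% and 28.5% of all genes. Mitochondrial ribosomal proteins had a median of -0.27. Mrpl34, Mrps21 and Mrpl36 fell (-0.79, -0.77 and -0.75), and Mrpl24 rose by 0.34. Of 44 genes of RNA polymerase I and ribosome assembly, 5 were called higher (11.4%) and 10 lower (22.7%), against 28.5% and 20.6% of all genes. The assembly factor Nop16 and the snoRNP protein Nhp2 fell (-0.70 and -0.59). Polr1a, the large subunit of the polymerase, Ubtf, which holds ribosomal genes open, and the snoRNP protein Nop56 rose by 0.36, 0.32 and 0.36. Calls on ribosome assembly genes numbered 24 after median-ratio scaling and 23 after scaling to the sum of coding genes, against 15 above. Of 13 snoRNA host genes, 4 were called higher (30.8%) and 2 lower (15.4%), against the same 28.5% and 20.6%. Gas5 was highest, at 433 and 419.5 TPM at 0 h and at 544 and 561 TPM at 72 h (0.37, adjusted p = 0.00144), and Snhg8 fell by 0.44. The 6 host gene calls came to 3 without replicate 1 at 72 h or replicate 2 at 72 h.

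Most proteasome genes fell by a small amount. Of 48 proteasome genes, 33 were called lower (68.75%) and 1 higher (2.08%), against 20.6% and 28.5% of all genes. The proteasome list had a median of -0.30. Subunits of the core and of the cap moved alike, with Psma5 at -0.47, Psma7 at -0.45, Psmb1 at -0.34, Psmc4 at -0.35, Psmd2 at -0.39 and Psmd14 at -0.54. The immunoproteasome subunit Psmb10 fell by 1.04. Psma8, the alpha subunit found in testis, was the 1 that rose, at 8.37 and 9.15 TPM at 0 h and at 16.5 and 17.5 TPM at 72 h (0.88, adjusted p = 4.32e-05). Nfe2l1, which encodes the factor that drives proteasome genes, did not pass the test (adjusted p = 0.158).

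Of 21 chaperone genes, 14 were called lower (66.7%) and 1 higher (4.76%), against 20.6% and 28.5% of all genes. Hspd1 and Hspe1, the mitochondrial chaperonin pair, fell (-0.50 and -0.42), the stress-inducible Hspa1b and Hspa1a (-0.92 and -0.86) and the chaperonin subunit Cct2 (-0.35). Hsf1, the heat shock factor, was the 1 that rose (0.25), but the call of Hsf1 was lost after median-ratio scaling, without replicate 1 at 0 h or without either library at 72 h (adjusted p from 0.0542 to 0.119). In the chaperone list, 15 genes were called, and 8 without replicate 2 at 0 h or replicate 1 at 72 h and 9 without replicate 2 at 72 h. In the unfolded protein response of the endoplasmic reticulum, 6 of 20 genes were called lower (30%) and 2 higher (10%), against 20.6% and 28.5% of all genes. Herpud1 fell by 0.76 and the main chaperone there, Hspa5, fell by 0.23, and the call of Hspa5 was lost without replicate 1 at 72 h (adjusted p = 0.0595). Dnajb9, a target of the Ire1 branch, rose by 0.71. Calls on stress response genes numbered 5 without the filter on low values, 5 without replicate 2 at 0 h, 3 without replicate 1 at 72 h and 4 without replicate 2 at 72 h, against 8 above.

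Several of these groups are made of short genes, and the response varied with exon length. In 5 classes of equal size by summed exon length, the median log2 fold change of protein-coding genes went from -0.080 in the shortest (up to 2451 bases) to 0.15 in the longest (from 7632 bases). The share called lower went from 33.1% to 15.5% and the share called higher from 23.0% to 33.6%. DNMT3ABKO cells had medians of -0.078 and 0.19 in the same classes. Median exon lengths were 1756 bases for the respiratory chain, 2394 for mitochondrial ribosomal proteins and 2814 for the proteasome, whose medians of -0.25, -0.27 and -0.30 were lower than those of their classes. Cytosolic ribosomal proteins were as short (1770 bases) with a median of 0.13. The part of exon length in these falls was not tested.

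**Figure D2:**
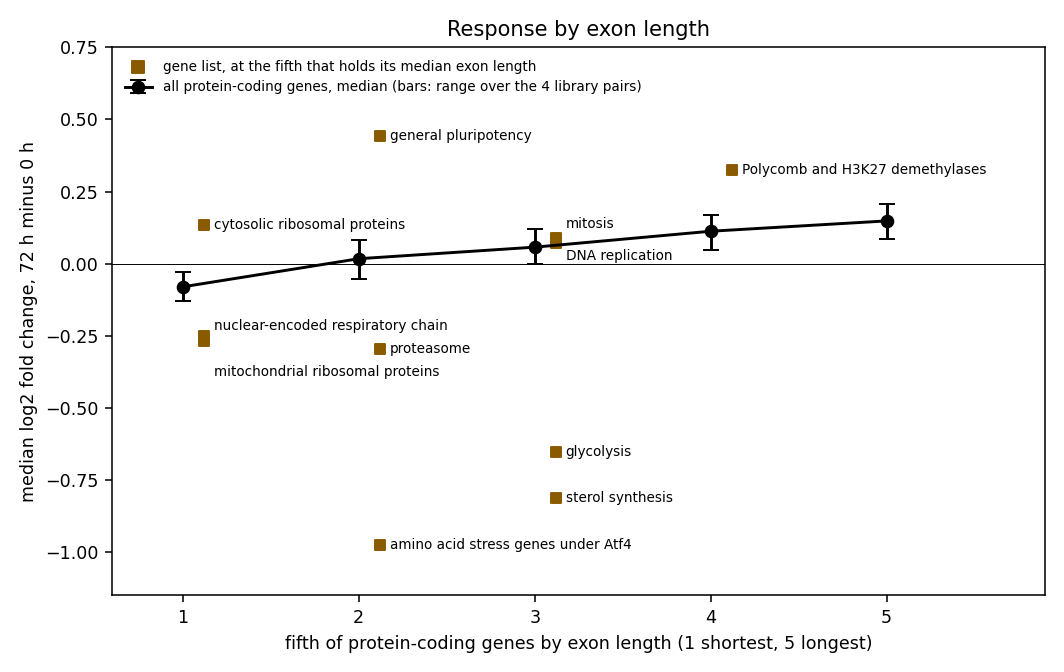
Median log2 fold change at 72 h (y axis) of protein-coding genes in 5 classes of exon length (x axis, from shortest to longest), with bars for the range over the 4 pairs of a 0 h and a 72 h library, and gene lists (squares) placed at the class of their median length. The class medians rise from -0.080 to 0.15, while the Atf4, sterol and glycolysis lists lie at -0.98, -0.81 and -0.65.

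Of 40 genes of the mTOR pathway itself, 14 were called higher (35%) and 7 lower (17.5%), near the 28.5% and 20.6% of all genes, with a median of 0.18. Deptor, an inhibitor bound to both complexes (ENSMUSG00000022419.16, chromosome 15, 55112317 to 55259271), was at 8.10 and 8.21 TPM at 0 h and at 18.1 and 18.4 TPM at 72 h (log2 fold change 1.07 ± 0.10 SE, adjusted p = 2.91e-05), which is 2.24 times its 0 h level. Mtor was at 19.4 and 20.9 TPM at 0 h and at 31.7 and 30.7 TPM at 72 h (0.61, adjusted p = 2.67e-04), Tsc2, which turns off the activator Rheb, at 36.7 and 39.0 TPM at 0 h and at 60.1 and 59.8 TPM at 72 h (0.65), and Rragb, one of the amino acid sensing GTPases, at 14.6 and 15.0 TPM at 0 h and at 25.9 and 25.6 TPM at 72 h (0.76). Eif4ebp1, the translation repressor that mTOR phosphorylates, was at 119 and 126 TPM at 0 h and at 58.4 and 56.3 TPM at 72 h (-1.08, adjusted p = 1.67e-05), and the leucine sensor Sesn2, also an Atf4 target, at 77.2 and 88.1 TPM at 0 h and at 40.3 and 36.0 TPM at 72 h (-1.09). Mlst8 and Rheb did not pass the test. The 21 mTOR calls came to 13 without replicate 1 at 0 h.

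Lysosomal genes moved in both directions. Of 42 genes of lysosomal enzymes and membrane proteins, 14 were called higher (33.3%) and 11 lower (26.2%), against 28.5% and 20.6% of all genes, with a median of -0.027. Ctsf, a cathepsin, was at 7.20 and 8.11 TPM at 0 h and at 22.3 and 21.1 TPM at 72 h (1.39, adjusted p = 2.92e-06). Mcoln1, the lysosomal calcium channel, was at 16.2 and 18.1 TPM at 0 h and at 35.1 and 33.4 TPM at 72 h (0.96, adjusted p = 1.55e-05), and Manba, which splits sugar chains, rose by 0.72. Ctsb was at 73.5 and 79.7 TPM at 0 h and at 40.6 and 40.3 TPM at 72 h (-0.90, adjusted p = 2.83e-05), and the tetraspanin Cd63 fell by 0.83. The vacuolar ATPase that acidifies the organelle had 2 of 16 subunits called higher (12.5%) and 2 lower (12.5%), with changes from -0.39 to 0.35. In the ATPase list, 4 genes were called, and 7 after scaling to the sum of coding genes, 2 in a fit of the 4 libraries alone, 2 without replicate 1 at 0 h, 0 without replicate 1 at 72 h and 1 without replicate 2 at 72 h. The factors were at -0.43 for Tfeb, which fell, and 0.28 for Tfe3, which did not pass the test (adjusted p = 0.0656) but passed after scaling to the sum of coding genes (0.0147) and in fits of the 4 or 6 KH libraries (0.0203 and 0.0187). Ctsb and Cd63 fell again between 72 and 144 h (-0.74 and -0.47), as did the summed macrophage markers. The part of macrophage RNA in these falls was not tested.

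The palindrome TCACGTGA bound by TFEB was in the windows of 5 of the 32 lysosomal genes with one (15.6%), against 1.12% of all genes with a window, and its core CACGTG, which it contains, in 13 of 32 (40.6%) against 8.09%. The 5 genes with the palindrome were Mcoln1, which rose, Ctsd, which fell (-0.46), and Ctsa, Gla and Cln3, which did not pass the test. Cln3 passed, higher, after scaling to the sum of coding genes (adjusted p = 0.025) and without replicate 2 at 0 h (0.0151), and Gla, lower, after median-ratio scaling (0.0208). The window of Mcoln1 is shown with the palindrome in capitals.
Mcoln1 (chr8:3500269-3500568, plus strand): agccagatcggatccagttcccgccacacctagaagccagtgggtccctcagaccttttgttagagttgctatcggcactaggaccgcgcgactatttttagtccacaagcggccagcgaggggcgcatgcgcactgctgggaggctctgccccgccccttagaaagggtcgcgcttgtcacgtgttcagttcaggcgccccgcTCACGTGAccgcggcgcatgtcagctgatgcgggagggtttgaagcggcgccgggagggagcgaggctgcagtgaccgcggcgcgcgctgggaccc

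Of 33 autophagy genes, 10 were called higher (30.3%) and 7 lower (21.2%), near the 28.5% and 20.6% of all genes. The receptors that bring cargo to the autophagosome had the highest and the lowest fold changes of the list. Optn was at 5.83 and 6.02 TPM at 0 h and at 16.9 and 16.7 TPM at 72 h (1.36, adjusted p = 1.43e-06). Calcoco1 was at 17.4 and 18.5 TPM at 0 h and at 44.9 and 42.3 TPM at 72 h (1.23, adjusted p = 1.37e-06). Nbr1 rose by 0.45, Sqstm1, which encodes p62, fell by 0.56, and the fold change of Calcoco2 was -3.57. Among the LC3 family, Gabarapl2 rose by 0.43 and Map1lc3a and Gabarapl1 fell (-0.64 and -0.52). Pik3c3, the lipid kinase of early autophagosomes, rose by 0.70. Map1lc3b, Becn1 and Atg12 did not pass the test.

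Of 45 replication genes, 13 were called higher (28.9%) and 3 lower (6.67%), and of 39 mitosis genes 16 (41%) and 4 (10.3%), against 28.5% and 20.6% of all genes. Pola1, the catalytic subunit of DNA polymerase alpha, was at 38.8 and 39.1 TPM at 0 h and at 59.8 and 63.7 TPM at 72 h (0.65, adjusted p = 7.51e-05), and the helicase subunit Mcm7 rose by 0.45. Pcna did not pass the test, at 290.4 and 327 TPM at 0 h and at 293 and 307 TPM at 72 h, but passed, lower, after median-ratio scaling (adjusted p = 0.0457). The checkpoint kinase Ttk was at 35.3 and 37.0 TPM at 0 h and at 59.4 and 60.3 TPM at 72 h (0.71, adjusted p = 3.18e-04) and Cdk1 rose by 0.44, while Aurka fell by 0.55. Mki67 was at 55.4 and 59.7 TPM at 0 h and at 74.0 and 77.3 TPM at 72 h (0.39, adjusted p = 0.0201), and the call of Mki67 was lost without the filter on low values, without replicate 1 at 0 h or without either library at 72 h (adjusted p from 0.056 to 0.106). Calls on replication genes numbered 9 without replicate 1 at 72 h or replicate 2 at 72 h, against 16 above. The 20 mitosis calls came to 12 without replicate 1 at 0 h, 11 without replicate 1 at 72 h and 10 without replicate 2 at 72 h. The median of the replication list was 0.073, and -0.016 after median-ratio scaling.

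The controls of the G1 phase changed in both directions. Of 26, 10 were called higher (38.5%) and 8 lower (30.8%), against 28.5% and 20.6% of all genes. The D cyclins, which growth signals raise, all fell. Ccnd2 was at 79.6 and 87.9 TPM at 0 h and at 32.5 and 31.9 TPM at 72 h (-1.35, adjusted p = 3.07e-06), Ccnd1 fell by 0.74 and Ccnd3 (-0.64), and Ccne1 (-0.44). Among the inhibitors of cyclin-dependent kinases, Cdkn1b, which encodes p27, was at 16.2 and 16.9 TPM at 0 h and at 28.7 and 28.7 TPM at 72 h (0.76, adjusted p = 6.28e-05) and Cdkn1c, which encodes p57, rose by 0.61. Cdkn1a, which encodes p21, was at 90.5 and 98.6 TPM at 0 h and at 43.1 and 40.5 TPM at 72 h (-1.16, adjusted p = 4.96e-06), and Cdkn2b and Cdkn2a fell (-0.80 and -0.70). The pocket protein Rbl1 rose by 0.71. Cdkn1a and Cdkn2b fell further between 72 and 144 h (-0.74 and -1.33), as fibroblast markers did, and the part of feeder RNA in these falls was not tested.

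Targets of p53 were mostly lower. Of 21 genes, 14 were called lower (66.7%) and 2 higher (9.52%), against 20.6% and 28.5% of all genes. The p53 list had a median of -0.49. Perp, Plk2, Phlda3, Ccng1 and Zmat3 fell (-1.53, -1.52, -1.23, -0.94 and -0.85), and Mdm2, the ligase that limits p53, was at 113 and 116 TPM at 0 h and at 70.7 and 75.1 TPM at 72 h (-0.64, adjusted p = 5.56e-05). Trp53 itself was at 349 and 401 TPM at 0 h and at 436 and 413 TPM at 72 h and did not pass the test (adjusted p = 0.0985), but was called higher after scaling to the sum of coding genes (0.0118) and without replicate 2 at 0 h (0.0331). Of 14 genes of the Bcl2 family, 3 were called higher (21.4%) and 5 lower (35.7%), against 28.5% and 20.6% of all genes. Bmf, a BH3-only protein that promotes cell death, was at 4.32 and 5.12 TPM at 0 h and at 16.6 and 17.2 TPM at 72 h (1.65, adjusted p = 1.05e-06), and the protective Mcl1 was at 241 and 256 TPM at 0 h and at 376 and 377 TPM at 72 h (0.60, adjusted p = 5.68e-05). The effectors Bak1 and Bok fell (-0.60 and -0.71), and Bax and Bcl2l1 did not pass the test.

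Myc itself was at 49.9 and 51.0 TPM at 0 h and at 122 and 117 TPM at 72 h (1.23, adjusted p = 6.91e-07). Mycn, the more abundant family member, was at 136 and 145 TPM at 0 h and at 147 and 136 TPM at 72 h (adjusted p = 0.973). The antagonists Mxd3, Mxd1 and Mnt rose by 0.88, 0.57 and 0.42. The 20 genes of the 7SK complex and of pause release had a median of 0.27. Of these, 11 were called higher (55%) and 2 lower (10%), against 28.5% and 20.6% of all genes. Next to Rn7sk, Hexim1, its protein partner that inhibits P-TEFb, rose by 0.40 and Mepce, which caps 7SK, by 0.50, while Larp7, which binds its 3′ end, fell by 0.37. Polr2a, the large subunit of RNA polymerase II, was at 94.9 and 95.3 TPM at 0 h and at 166 and 161 TPM at 72 h (0.77, adjusted p = 1.51e-04). Of the 69 clustered histone genes, many with near-identical sequences, 6 were called higher (8.70%) and 12 lower (17.4%), against 28.5% and 20.6% of all genes. Hist1h1e and Hist2h3c2 fell (-0.85 and -0.91). In the histone list, 18 genes were called, and 11 without replicate 2 at 72 h.

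**Figure D3:**
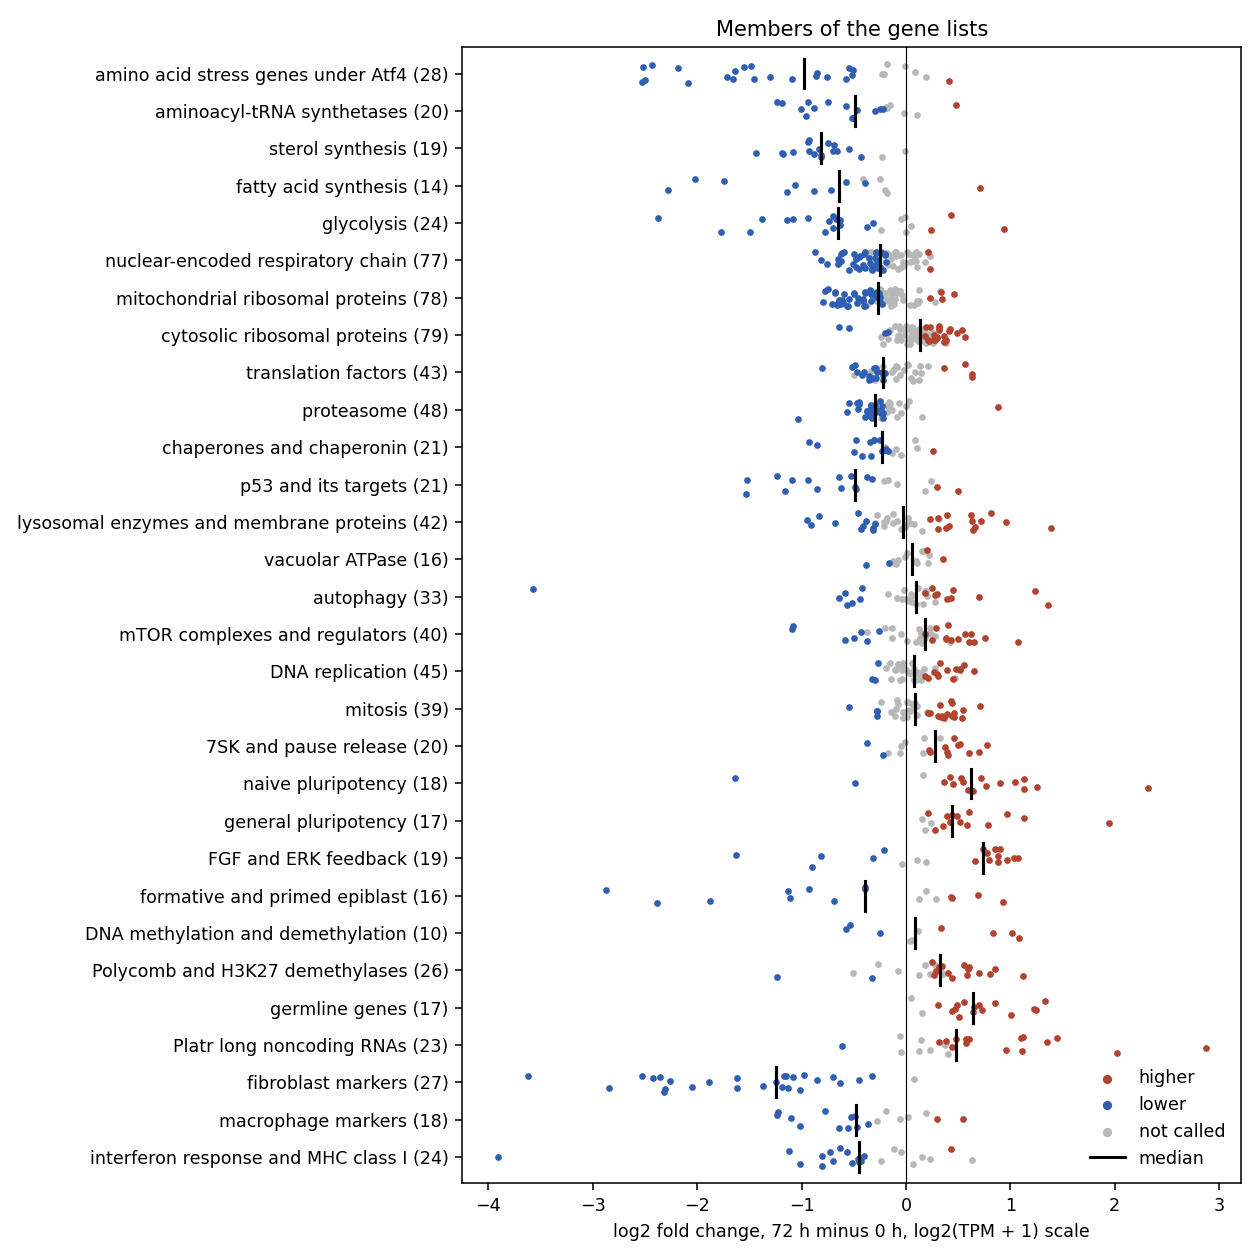
Log2 fold change at 72 h (x axis) of each tested member of 30 gene lists (y axis, number of tested members in brackets), coloured by its call, with the median of each list as a bar. Most points of the Atf4, sterol, fatty acid and glycolysis lists lie to the left of 0, most of the naive and general pluripotency lists to the right, and those of the lysosomal list on both sides of it.

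Most genes of the pluripotency network rose. Of 18 genes of naive pluripotency, the state of the early epiblast, 15 were called higher and 2 lower, against 28.5% and 20.6% of all genes, with a median of 0.62. Of 17 genes of general pluripotency, 14 were called higher and 0 lower, with a median of 0.44. Pou5f1, which encodes Oct4, was at 843 and 863 TPM at 0 h and at 1132 and 1106 TPM at 72 h (0.39, adjusted p = 7.17e-04), Sox2 at 208 and 225 TPM at 0 h and at 313 and 307 TPM at 72 h (0.52, adjusted p = 0.00388) and Nanog at 189 and 212 TPM at 0 h and at 275 and 273 TPM at 72 h (0.45, adjusted p = 0.00796). The call of Nanog was lost without replicate 1 at 0 h (adjusted p = 0.0621). Larger fold changes were those of Klf4 (82.8 and 98.5 TPM at 0 h and at 201 and 196 TPM at 72 h, log2 fold change 1.13), Tbx3 (36.6 and 40.2 TPM at 0 h and at 81.3 and 79.0 TPM at 72 h, 1.04), Nr0b1 (56.9 and 58.6 TPM at 0 h and at 143 and 136 TPM at 72 h, 1.26) and Prdm14 (3.76 and 4.95 TPM at 0 h and at 10.3 and 11.0 TPM at 72 h, 1.13). Foxd3, which keeps ES cells from differentiating, was at 6.52 and 8.60 TPM at 0 h and at 33.4 and 29.9 TPM at 72 h (log2 fold change 1.94 ± 0.12 SE, adjusted p = 2.39e-06), and the Nodal coreceptor Tdgf1 at 345 and 384 TPM at 0 h and at 709 and 714 TPM at 72 h (0.96). Esrrb, Klf2 and Zfp42 rose by 0.77, 0.60 and 0.42.

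The 2 naive genes that fell were Dppa3, which encodes the maternal factor Stella and guards methylation in the zygote, and Fbxo15. Dppa3 was at 108 and 113 TPM at 0 h and at 32.4 and 37.4 TPM at 72 h (-1.64, adjusted p = 2.39e-06) and Fbxo15 at 149 and 167 TPM at 0 h and at 110.1 and 115 TPM at 72 h (-0.49). The Platr long noncoding RNAs, named for their association with pluripotency, were mostly called higher. Of 30 in the files, 23 reached the filter, 15 were called higher and 1 lower. After Platr7, Platr30 was at 0.592 and 0.566 TPM at 0 h and at 5.05 and 5.82 TPM at 72 h (2.02) and Platr22 at 2.26 and 2.94 TPM at 0 h and at 9.31 and 8.30 TPM at 72 h (1.45), and Platr14 was the 1 that fell, at 114 and 121 TPM at 0 h and at 77.8 and 74.6 TPM at 72 h (-0.62). That filter keeps genes through either group, so the count is not a test of all Platr genes.

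Genes of the formative and primed epiblast were split. Of 16 tested, 9 were called lower (56.25%) and 4 higher (25%), against 20.6% and 28.5% of all genes. Besides Fgf5, the mesendoderm genes Mixl1 and Eomes fell, Mixl1 from 3.18 and 3.19 TPM to 0.127 and 0.152 TPM (-1.88) and Eomes from 8.11 and 9.52 TPM to 3.39 and 3.60 TPM (-1.13). Zic2, Lef1, Sox3 and Nodal rose by 0.93, 0.69, 0.44 and 0.43. Otx2 and Pou3f1, markers of exit from the naive state, did not pass the test. Otx2 was at 10.9 and 14.1 TPM at 0 h and at 15.6 and 15.0 TPM at 72 h and Pou3f1 at 8.10 and 8.90 TPM at 0 h and at 10.2 and 9.40 TPM at 72 h, and Otx2 passed, higher, after scaling to the sum of coding genes (adjusted p = 0.0486).

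Of the signals that shape this network, FGF and ERK feedback genes had the highest median, 0.74. Called higher were 11 of 19 (57.9%), and 5 were called lower (26.3%), against 28.5% and 20.6% of all genes. The ligand Fgf4 was at 79.9 and 81.6 TPM at 0 h and at 153 and 149.8 TPM at 72 h (0.90, adjusted p = 1.17e-05). Its feedback inhibitors Spry4, Spry2, Spry1 and Dusp6 rose by 0.97, 0.88, 1.03 and 0.85, and the ERK targets Fos, Egr1 and Etv4 by 1.07, 0.79 and 0.88. By contrast, Fosl1 of the same list fell from 7.71 to 3.65 TPM (-0.90, adjusted p = 2.44e-04). The receptors fell, Fgfr1 from 61.9 and 71.0 TPM to 37.0 and 37.5 TPM (-0.82) and Fgfr2 from 23.9 and 23.9 TPM to 6.70 and 7.43 TPM (-1.63). In the LIF pathway, 8 of 17 were called higher (47.1%) and 4 lower (23.5%), the latter near the 20.6% of all genes. The targets Socs3, Pim1 and Pim3 rose by 0.55, 0.99 and 1.53, while the ligand Lif fell by 0.83.

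Wnt targets moved in both directions, Axin2 from 10.3 and 10.2 TPM to 23.8 and 20.3 TPM (1.03), with Notum and Cdx1 higher by 1.41 and 1.01. Lgr5, a target and receptor of the pathway, was at 4.19 and 5.43 TPM at 0 h and at 1.59 and 1.40 TPM at 72 h (-1.21, adjusted p = 9.79e-04), and the repressor Tcf7l1 fell by 0.59. Of the 15 Wnt genes, 8 were called higher (53.3%) and 2 lower (13.3%), against 28.5% and 20.6% of all genes. In the BMP pathway, the ligand Bmp4 was at 19.6 and 24.7 TPM at 0 h and at 49.1 and 45.0 TPM at 72 h (1.06) and the inhibitor Smad7 rose by 1.05, whereas the targets Id1, Id2 and Id3 fell (-0.47, -0.79 and -0.73). Of 12 genes of that list, 3 were called higher (25%) and 3 lower (25%), near the 28.5% and 20.6% of all genes.

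Among genes of DNA methylation, 4 of 10 were called higher (40%) and 3 lower (30%), against 28.5% and 20.6% of all genes. The TET enzymes oxidise methylcytosine and start its removal. Tet1 (ENSMUSG00000047146.17, chromosome 10, 62804570 to 62908996) was at 99.8 and 101 TPM at 0 h and at 198 and 210.0 TPM at 72 h (log2 fold change 1.01 ± 0.12 SE, adjusted p = 1.29e-04) and Tet2 (ENSMUSG00000040943.12, chromosome 3, 133463679 to 133545139) at 40.1 and 43.6 TPM at 0 h and at 88.6 and 90.9 TPM at 72 h (log2 fold change 1.08 ± 0.15 SE, adjusted p = 2.44e-04), 2.03 and 2.14 times the 0 h level. Tet3, which is scarce in ES cells, was at 4.91 and 4.89 TPM at 0 h and at 5.20 and 5.06 TPM at 72 h and did not pass the test (adjusted p = 0.716). Tdg, which excises oxidised methylcytosine, fell slightly (-0.25, adjusted p = 0.00799), and the call of Tdg was lost without replicate 2 at 72 h (adjusted p = 0.0642).

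The methyltransferases did not move together. Dnmt1, which copies methylation at replication, was at 103 and 105 TPM at 0 h and at 134 and 129 TPM at 72 h (0.33, adjusted p = 0.00118), and its partner Uhrf1 was at 211 and 224 TPM at 0 h and at 226 and 222 TPM at 72 h (adjusted p = 0.604). Of the de novo enzymes, Dnmt3b was at 255 and 258 TPM at 0 h and at 181 and 173 TPM at 72 h (-0.53, adjusted p = 1.15e-04) and Dnmt3a at 57.7 and 54.7 TPM at 0 h and at 62.7 and 59.1 TPM at 72 h (adjusted p = 0.761). Dnmt3c, whose sequence is close enough to Dnmt3b to share reads, fell by 0.57. Dnmt3l, the cofactor without catalytic activity, was at 237 and 251 TPM at 0 h and at 442 and 429 TPM at 72 h (0.83, adjusted p = 2.89e-06).

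**Figure D4:**
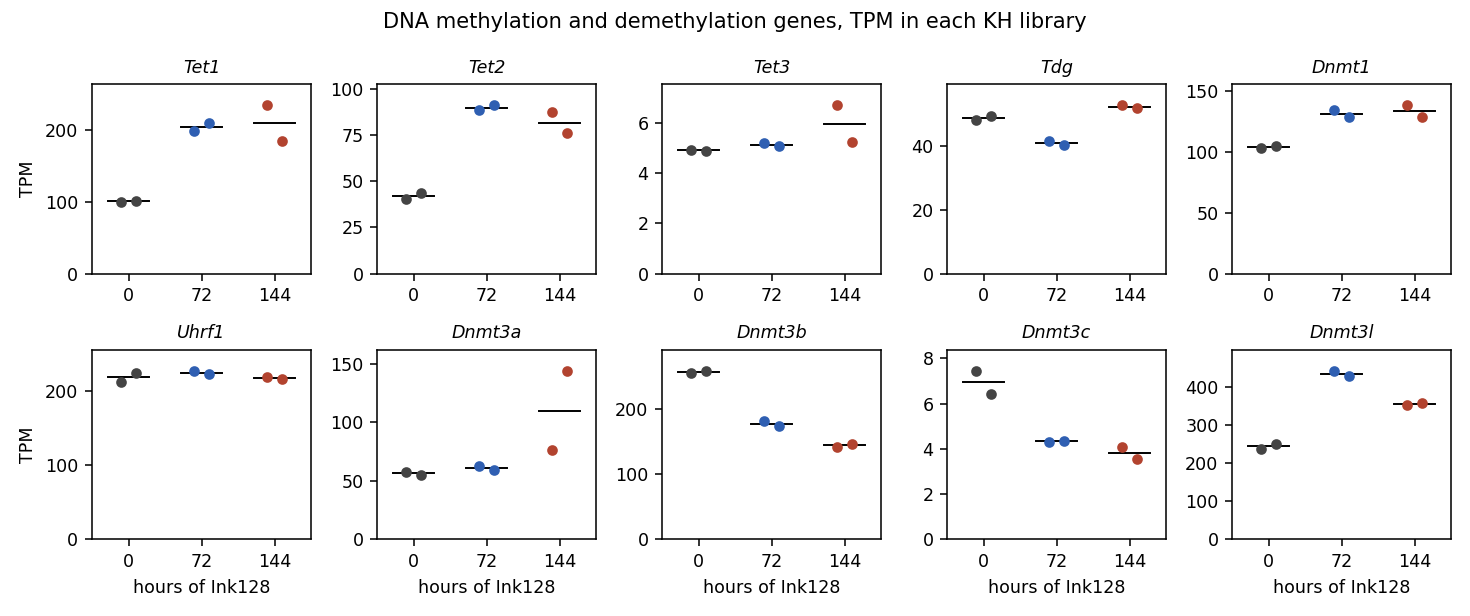
TPM in each of the 6 KH libraries (points) with the mean of each pair (line) for the 10 genes of DNA methylation and demethylation, against hours of Ink128 (x axis); each y axis starts at 0. Tet1, Tet2 and Dnmt3l had higher means and Dnmt3b a lower mean at 72 h than at 0 h, and the Dnmt3a libraries at 144 h were far apart.

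Many chromatin genes of the Polycomb group rose. Of 26, 15 were called higher (57.7%) and 2 lower (7.69%), against 28.5% and 20.6% of all genes. Polycomb genes had a median of 0.32. Kdm2b, which brings the complex to CpG islands, was at 33.3 and 35.7 TPM at 0 h and at 75.9 and 76.7 TPM at 72 h (1.12, adjusted p = 1.43e-06), Cbx7 and Phc1, subunits of the canonical complex 1, rose by 0.85 and 0.81, and Eed of complex 2 by 0.44. Phf19, an accessory protein of complex 2, fell from 11.2 and 12.9 TPM to 4.28 and 4.83 TPM (-1.23). Among silencing factors, 8 of 19 were called higher (42.1%) and 4 lower (21.1%), against 28.5% and 20.6% of all genes. Zfp57, the zinc finger protein that keeps imprints, was at 160.0 and 175 TPM at 0 h and at 499 and 497 TPM at 72 h (1.57, adjusted p = 3.13e-06), and its partner Trim28 did not pass the test (adjusted p = 0.0628) except with a robust spread (0.0395). Calls on silencing genes numbered 7 without replicate 1 at 0 h, against 12 above.

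Of 26 imprinted genes tested, 6 were called higher (23.1%) and 9 lower (34.6%), against 28.5% and 20.6% of all genes. The noncoding RNAs of the Dlk1-Meg3 region on chromosome 12, made from the maternal allele, rose together. Meg3 (ENSMUSG00000021268.17, chromosome 12, 109541001 to 109571726) was at 113 and 125 TPM at 0 h and at 276 and 268 TPM at 72 h (1.19, adjusted p = 8.03e-06), Rian at 318 and 332 TPM at 0 h and at 726 and 737 TPM at 72 h (1.17) and Mirg at 23.0 and 26.4 TPM at 0 h and at 95.3 and 95.7 TPM at 72 h (1.91). Dlk1, the paternal gene of that region, fell from 6.76 and 8.18 TPM to 4.53 and 4.71 TPM (-0.59). Phlda2, Grb10 and Snrpn fell (-1.36, -1.22 and -0.82), and Cdkn1c rose by 0.61. TPM do not show alleles.

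Germline genes, many of which DNA methylation and Polycomb complexes keep silent, were mostly higher from low levels. Of 22 listed, 17 reached the filter, and 15 of these were called higher and 0 lower. Since a gene silent at 0 h passes the filter only by rising, this count is a description. Dazl, an RNA-binding protein of germ cells, was at 1.99 and 2.30 TPM at 0 h and at 7.16 and 5.82 TPM at 72 h (1.25, adjusted p = 6.80e-04), the meiotic cohesin subunit Stag3 at 6.37 and 6.98 TPM at 0 h and at 18.6 and 18.1 TPM at 72 h (1.33, adjusted p = 3.53e-06), and the synaptonemal complex gene Sycp1 at 1.67 and 1.28 TPM at 0 h and at 3.79 and 4.12 TPM at 72 h (1.00). Of 32 Rhox homeobox genes, 15 were at 0 in all 4 libraries and 3 reached the filter, all lower. Rhox5 was at 122 and 119.7 TPM at 0 h and at 33.0 and 35.5 TPM at 72 h (-1.79, adjusted p = 6.23e-06) and Rhox6 fell by 2.38, and the similar Rhox6 and Rhox9 can share reads. The 3 Rhox calls came to 6 without the filter on low values. None of the 18 markers of the 2-cell-like state reached the filter, 2 were called without it, and their summed level went from 3.49 ± 0.569 to 1.49 ± 0.0655 TPM.

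Markers of other cell types mostly fell, and the fibroblast list had the lowest median of these lists. Among all genes, 20.6% were called lower and 28.5% higher. Of 27 fibroblast markers tested, 26 were called lower (96.3%) and 0 higher, with a median of -1.24. Their summed level was 4274 and 4776 TPM at 0 h and 2148 and 2099.8 TPM at 72 h, and its mean was 979.8 TPM at 144 h. Col1a1, the main fibrillar collagen, was at 372 and 366 TPM at 0 h and at 79.4 and 73.2 TPM at 72 h (-2.26, adjusted p = 1.09e-06) and at 10.7 and 8.63 TPM at 144 h. Fn1, which ES cells also make, was the 1 that did not pass the test, at 537 and 583 TPM at 0 h and at 598 and 586 TPM at 72 h. Of 18 smooth muscle and SRF target genes, 14 were called lower (77.8%) and 1 higher (5.56%). Acta2 fell from 529.8 and 615 TPM to 241 and 229.9 TPM (-1.28), and Tagln fell (-1.23). Vim and Timp1, which ES cells express as well, fell too (-1.37 and -1.08), and the share of each source was not tested.

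Of 18 macrophage markers, 11 were called lower (61.1%) and 2 higher (11.1%), against 20.6% and 28.5% of all genes. The 2 that rose were Laptm5 (0.54, adjusted p = 0.00557) and Cd14 (0.29, adjusted p = 0.0465). The call of Cd14 was lost in several other settings, among them median-ratio scaling (adjusted p = 0.15) and a pseudocount of 0.1 TPM (0.0969). Without replicate 1 at 0 h, Laptm5 rose by 0.398. The summed level of the macrophage list was 368 and 402 TPM at 0 h, 280.4 and 271 TPM at 72 h and a mean of 41.7 TPM at 144 h. C1qa was at 19.9 and 23.5 TPM at 0 h and at 8.71 and 8.52 TPM at 72 h (-1.24) and Lyz2 at 175 and 184 TPM at 0 h and at 104 and 104 TPM at 72 h (-0.77). In the macrophage list, 13 genes were called, and 8 with a pseudocount of 0.1 TPM and 8 without replicate 1 at 0 h, replicate 2 at 0 h or replicate 1 at 72 h. Of 24 genes of the interferon response and of antigen presentation, 16 were called lower (66.7%) and 1 higher (4.17%), against the same shares of all genes. Besides Ly6a, Isg15 fell by 1.12 and B2m, the light chain of MHC class I, from 77.8 and 98.7 TPM to 42.9 and 42.6 TPM (-1.02), and Irf3 rose by 0.43.

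Of 8 primitive endoderm markers, 5 were called lower and 1 higher. Sparc, Col4a1 and Col4a2, which fibroblasts also express, fell (-1.62, -1.32 and -1.28), Gata6 was at 1.20 and 1.40 TPM at 0 h and at 0.892 and 0.804 TPM at 72 h and did not pass the test, and Lama1 rose by 0.59. Of 8 trophoblast markers, 6 were called lower and 0 higher, Krt8 from 25.1 and 29.4 TPM to 8.83 and 6.89 TPM (-1.68) and Tfap2c, which is shared with naive ES cells, from 50.6 and 60.2 TPM to 24.7 and 22.9 TPM (-1.18). Of 14 early neural markers, 8 reached the filter, of which 5 were called higher and 2 lower. That filter keeps genes through either group, so this count is a description. The summed level of the 14 was 104 and 112 TPM at 0 h and 95.5 and 92.0 TPM at 72 h. After Sox1, Pax6 was at 1.80 and 2.51 TPM at 0 h and at 7.09 and 8.40 TPM at 72 h (1.48, adjusted p = 7.82e-05), Olig2 at 6.19 and 7.46 TPM at 0 h and at 16.5 and 15.5 TPM at 72 h (1.12) and Sox21 at 1.29 and 1.53 TPM at 0 h and at 4.03 and 4.12 TPM at 72 h (1.08), whereas Nes and Tubb3, which are not confined to neural cells, fell (-1.26 and -0.63).

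The 144 h libraries show which of these levels stayed. That comparison shares the 72 h libraries, so its values stand beside the earlier ones and are no second test of them. Between 72 and 144 h, 6.81% of the genes were called higher and 16.6% lower. These 3621 calls were 1782 without replicate 1 at 72 h and 1890 without replicate 2 at 72 h. Several metabolic genes turned upward. Ldha was at 448 ± 1.37 TPM at 144 h (1.07 against 72 h, adjusted p = 2.96e-06), Slc2a1 at 179 ± 5.59 TPM (1.44), Psat1 at 71.0 ± 3.14 TPM (0.66), Hmgcs1 at 116 ± 4.08 TPM (0.50) and Scd2 at 107 ± 2.46 TPM (0.72). Slc2a1 then lay above its 0 h level of 137 and 141 TPM, and the other 4 stayed below theirs. Foxd3 fell back to 12.1 ± 0.756 TPM (-1.31), Bmp4 to 16.8 ± 1.86 TPM (-1.43) and Fos to 20.5 ± 1.58 TPM (-1.80). Sox1, Pax6 and Zic2 rose further, by 1.12, 1.46 and 0.86, and Tet1, Deptor and Ctsf did not pass the test of that step (adjusted p = 0.919, 0.477 and 0.915).

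DNMT3ABKO cells, which share no library with this comparison, gave the same sign at 72 h for all 12 highest and all 12 lowest genes. The share of all genes with the same sign in both lines was not counted, so this is only a description. The response itself differed between the lines for 454 of the 15464 genes (2.94%), and for 172 without replicate 1 at 0 h, 213 without replicate 2 at 0 h, 118 without replicate 1 at 72 h and 106 without replicate 2 at 72 h. List medians in DNMT3ABKO cells, given with no test, were -0.84 for the Atf4 list, -1.01 for sterol synthesis and -0.73 for glycolysis, against -0.98, -0.81 and -0.65 in KH cells. In naive pluripotency the difference was called for 6 of 18 genes. Prdm14 was at -0.077 in DNMT3ABKO cells (difference -1.21, adjusted p = 0.00647), and Nanog, which rose in KH cells, at -0.49 (difference -0.95, adjusted p = 0.0157). Tet1 and Tet2 responded with 1.19 and 1.26, and a difference between the lines was not called (adjusted p = 0.683 and 0.733).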

How the data were processed

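Total RNA had been depleted of ribosomal RNA and sequenced as paired ends, with ERCC spike-ins added. The authors deposited TPM per gene for each of the 12 libraries. The submitters' processing notes name cutadapt 2.4, STAR 2.7.3a and StringTie 2.0, with build mm10. TPM keep no read depth, so the depth behind each value is unknown, and the spike-ins were not used here. Each library sums to the same total. Rows that repeat a gene identifier were summed.

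Genes that averaged 1 TPM or more in the 4 KH libraries of 0 and 72 h were tested as log2(TPM + 1) in limma 3.58.1 (R 4.3.3), with lmFit and eBayes with trend over all 12 libraries and 6 group means, and the Benjamini-Hochberg method at 0.05. An exact permutation test of 2 against 2 libraries cannot go below p = 0.333 and was not used. The DNMT3ABKO response and its difference from that of KH cells came from the same fit. Differences from 144 h did too. Tables were made with Python 3.11.15 and pandas 2.3.3, and limma was tested on data simulated for KH 72 h against 0 h with 200 changed genes. It recovered 30.5% of changes of 0.5 on the log2 scale (15269 genes, 3.17% of calls false) and 80.0% of changes of 1 (15256 genes, 6.43% false). The 200 changed genes are far fewer than the 7593 called in the data, so these shares need not hold there.

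The study's own test needs counts and was not used. The main fit held no replicate term, although the reporting summary describes time points of a replicate as handled in parallel. Across genes, replicate deviations at 0 and 72 h had a correlation of -0.0566, which does not settle whether libraries were paired. The members and 52 gene lists were chosen with earlier results of these data known, so no count over a list is independent evidence. Named were the 12 highest and 12 lowest called genes with libraries apart, leaving out predicted genes, pseudogenes and small RNA genes. Added were up to 3 called genes per list and direction, also with libraries apart, and the 10 largest TPM moves each way. All DNA methylation genes and members that mark a pathway step were added too. Some genes the rule names are not reported here. Where 2 identifiers share a symbol, the better expressed was used. Alternatives were another pseudocount, other filters, scalings and sample sets, a replicate block, a robust spread, a minimum fold change and leaving out each library. TGATGCAA was added to the motifs after results were seen.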

Additional observations from a re-analysis of the deposited data

Results flagged for a closer look

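For 49 of the named genes, the 72 h response differed between DNMT3ABKO and KH cells, by limma's test of the difference itself, with adjusted p from 3.32e-04 to 0.0472. Each value in brackets is the log2 fold change in DNMT3ABKO cells minus that in KH cells, with 2 libraries in each line and time. No explanation was tested.

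For 6 of these genes the fold changes of the lines had opposite signs as fitted, but the KH value of Mycn and the DNMT3ABKO value of Prdm14 lay near 0, so those signs are not determined. The 6 were Mycn (0.0029 in KH cells, -0.46 in DNMT3ABKO cells, difference -0.46), Nanog (0.45 in KH cells, -0.49 in DNMT3ABKO cells, difference -0.95), Prdm14 (1.13 in KH cells, -0.077 in DNMT3ABKO cells, difference -1.21), Ldhb (0.43 in KH cells, -0.98 in DNMT3ABKO cells, difference -1.41), Hist1h2br (0.92 in KH cells, -1.09 in DNMT3ABKO cells, difference -2.01) and Pax6 (1.48 in KH cells, -0.54 in DNMT3ABKO cells, difference -2.02).

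Another 22 genes had positive values in both lines and larger ones in DNMT3ABKO cells, namely Cntfr (1.70), Dazl (1.41), Pou3f1 (1.23), Lef1 (1.15), Egr1 (1.04), Sycp1 (0.87), Halr1 (0.86), Axin2 (0.84), Tet3 (0.82), Eif4g3 (0.78), Cdkn1c (0.76), Tdgf1 (0.74), Pdk1 (0.71), Dnmt3l (0.64), Sox3 (0.62), Manba (0.59), Myc (0.51), Nphs1 (0.50), Pmaip1 (0.49), Spry2 (0.49), Gabarapl2 (0.43) and Etv4 (0.43). Positive values in both, smaller in DNMT3ABKO cells, were found for Zic2 (-0.68) and Tbx3 (-0.71).

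Negative values in both lines that were smaller in size in DNMT3ABKO cells were found for Fgf8 (1.45), Fgf5 (1.38), Slc16a3 (1.19), Mthfd2 (0.98), Grb10 (0.73), Ldha (0.43) and Dnmt3b (0.43), a gene disrupted in that line. Those of Timp1 (-0.56), Ctsb (-0.57), Rrm2 (-0.62), Pfkm (-0.65), Fgfr2 (-0.66), Tubb3 (-0.72), Pck2 (-0.73), Fads2 (-0.89), Calcoco2 (-1.23), Rhox9 (-1.25), Dppa3 (-1.33) and Tfap2c (-1.95) were larger in size in DNMT3ABKO cells.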

How the results depend on the processing

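The 7593 calls at 72 h, and their 4404 higher and 3189 lower genes, stayed within 1.5 times of these counts under every alternative except a minimum absolute log2 fold change of 1, which left 1033 calls, 583 higher and 450 lower. Leaving out 1 KH library gave 5354 to 6171 calls, of which 3070 to 3950 were higher and 2204 to 2828 lower, with fewer libraries in the fit. The median log2 fold change of all genes, 0.077, was 0.012 without the filter on low values and -0.0051 after median-ratio scaling, and 0.039 to 0.11 without 1 library. No called fold change of a named gene changed sign. Of 393 named genes, 52 lost a call in at least 1 alternative other than the minimum fold change and 16 gained one, and 51 of the 52 lost it in a fit without 1 library.

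The 454 genes whose response differed between lines were 804 without the filter, 823 with the filter over all 12 libraries, 944 after median-ratio scaling, 992 after scaling to the sum of nuclear protein-coding genes and 106 to 213 without 1 KH library. The 3621 calls between 72 and 144 h were 1782 to 3514 without 1 library. The cause of these shifts was not tested. List medians close to 0 changed sign, namely those of the lysosome, vacuolar ATPase, RNA polymerase I, snoRNA host, DNA replication, Bcl2, histone, Myc and BMP lists.

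Replicate numbers are shared in the labels, and the deviations of the replicates at 0 and 72 h had a correlation of -0.0566. With the replicate block within each line, the 72 h calls came to 7206 (4196 higher, 3010 lower), with 3148 between 72 and 144 h, and 194 for the difference between lines. Under the block Tfe3 and Cln3 passed (adjusted p = 0.0453 and 0.0375), Atp6v1b2, Atp6v0c, Sdha, Impdh2, Rplp1, Cd14 and Actb did not (0.0511 to 0.093), and calls on the vacuolar ATPase came to 2 (4 without it) and on mitochondrial messages to 1 (0 without it). Single values rest on 2 libraries a group, and TPM give no depth.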
